A study of Mus musculus with 2 samples.

Results

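The autophagy and lysosome genes of ES-D3 mouse embryonic stem cells were compared between cells grown in a microfluidic chamber and cells grown on a 6-well plate. The genes were taken from the authors' annotated table by symbol, as the probe sets carrying 1 symbol that is Atg with a number, Cts with a letter or Atp6v with any ending, that names a LAMP, ULK, LC3 or GABARAP family member, or that reads Becn1, Sqstm1, Tfeb, Tfe3, Npc1 or Npc2. This gave 80 probe sets of 75 genes, out of 24708 probe sets with 1 symbol for 23370 genes. They fell into 28 genes that build the autophagosome, 18 cathepsins with a letter in the symbol, 22 subunits of the vacuolar proton pump and 7 other genes, which were the LAMP and NPC genes and the transcription factors Tfeb and Tfe3.

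The microchamber group was 1 array of ES-D3 cells from a microfluidic chamber, and the 6-well plate group was 1 array of the same line from a standard culture plate. ES-D3 is an established embryonic stem cell line of strain 129S2/SvPas. According to the labels, each culture started from 20000 cells per square centimetre and was kept for 3 days in 15% serum with 1000 U of leukaemia inhibitory factor (LIF), before profiling on Affymetrix Mouse Gene 2.0 ST arrays. The study asked how gene expression differs in a chamber with minimal perfusion.

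Macroautophagy encloses cytoplasm in a double membrane, the autophagosome, which fuses with the lysosome for degradation. The ULK1 kinase complex starts the process, a lipid kinase complex with Beclin 1 marks the site of nucleation, lipids are supplied by ATG9 vesicles and ATG2, and ubiquitin-like conjugation attaches the ATG8 family proteins (LC3 and GABARAP) to the growing membrane. In the lysosome the vacuolar proton pump acidifies the lumen, where cathepsins digest proteins. TFEB and TFE3 are transcription factors that bind the CLEAR element in the promoters of many lysosomal genes, and they are held in the cytoplasm when the growth kinase complex mTORC1 is active. TFE3 is also known in mouse embryonic stem cells as a factor that opposes exit from the naive state.

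All values below are log2 RMA values, a scale on which 1 unit is a 2-fold step, and each difference is the microchamber value minus the plate value. With 1 array in each group, no test of the culture conditions can be made, so each difference describes these 2 arrays. Of the 75 genes, 70 passed a filter on low signal, which left out genes whose value on both arrays fell in the lowest 20% of singly named probe sets (under 5.18 on the microchamber array and under 5.17 on the plate array). The other 5, Ctsm, Ctsq, Ctsr, Atp6v0d2 and Lamp3, were below it on both arrays. The spread inside this pair of arrays gives the only scale for error. Over the 19099 genes past the filter, differences had an SD of 0.13, 0.24, 0.36 and 0.35 in 4 bins of equal size, from the lowest mean level to the highest. The difference had a within-gene SD of 0.21 between probe sets, taken over 793 genes measured by 2 of them. Neither figure measures the spread between cultures. RNA came from the whole culture, so fewer cells of a type and less RNA per cell cannot be told apart.

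Embryonic stem cell identity was checked with 8 markers, which all passed the filter and had a median value of 11.90 in the microchamber and 11.89 on the plate. In difference 5 were above 0 and 3 below. Pou5f1 and Sox2 had 8.10 and 12.11 in the microchamber, against 7.74 and 11.86 on the plate. Tdgf1 and Dppa5a had 12.26 and 6.27 in the microchamber, against 13.08 and 6.57 on the plate. Macrophages, which are rich in lysosomes, were covered by 8 measured markers, with medians of 5.50 in the microchamber and 5.42 on the plate. They ranged from 5.03 to 10.64 in the microchamber and from 5.11 to 11.06 on the plate, where the highest on each array was the endosomal glycoprotein Cd68. The leukocyte marker Ptprc was below the filter on both arrays. Visceral endoderm, an embryonic tissue that is also rich in lysosomes, was covered by 11 markers, with medians of 6.55 in the microchamber and 6.53 on the plate. They ranged from 5.51 to 8.57 in the microchamber and from 5.59 to 7.53 on the plate, 6 above 0 and 5 below in difference. Among them the endocytic receptors Cubn and Lrp2 had 8.57 and 8.27 in the microchamber, against 7.09 and 7.53 on the plate. Their differences of 1.48 and 0.73 were the only 2 (18.2%) of at least 0.5 log2 units upwards, against 3.6% of all genes past the filter. None was that much lower. Dab2 came next at 0.45, and Gata6 was lowest at -0.17. Afp had 5.81 in the microchamber and 5.84 on the plate, and Ttr 5.72 and 5.68. Fibroblast and feeder cell markers numbered 10, with medians of 5.66 in the microchamber and 5.84 on the plate, and 3 were below the filter. All 7 past it were lower in the microchamber, with a median difference of -0.35. Of 5 osteoclast markers (medians 6.09 and 5.86) 3 were lower, with a median difference of -0.16. Among 7 measured placental trophoblast markers (medians 5.10 and 4.97) 4 were below the filter. The 3 past it were lower, with a median of -0.24. Of all genes past the filter 52.3% were lower. The part of other cell types in the differences below was not tested.

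No member was as much as 2-fold apart between the arrays. Over all genes past the filter, 0.791% were at least 2-fold apart, 0.346% higher in the microchamber and 0.445% lower. At a step of 0.5 log2 units, which is 1.41-fold, 3 members were higher in the microchamber (Ctsa, Atg13 and Ctsd) and 5 were lower (Gabarapl1, Atg12, Atp6v0a4, Atg9a and Atg4a). These were 4.29% and 7.14% of the 70 members past the filter, against 3.6% and 4.26% of all genes past the filter. Among genes at or above the median on at least 1 array, 5.51% were higher and 6.6% lower by that step, so the counts for the members as a whole lay near the background. Of the 70 members 40 were above 0 and 30 below, which is 57.1% and 42.9%, against 46.9% and 52.3% of all genes. Their median difference was 0.04, against -0.01 for all genes. In the plot of differences by class, each class held members on both sides of 0.

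**Figure D1:**
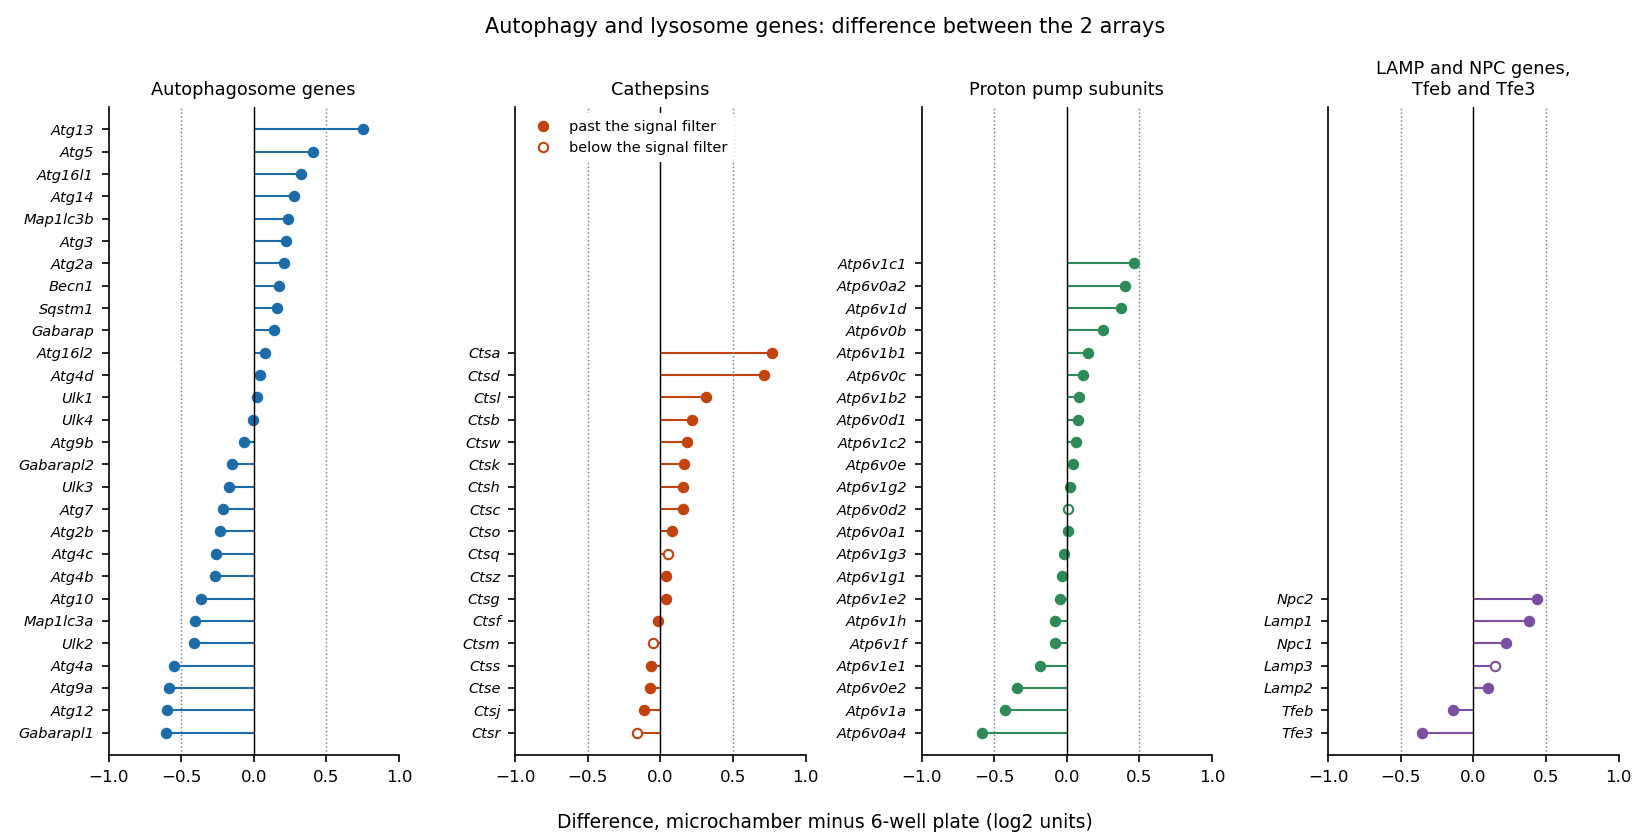
Difference between the microchamber array and the 6-well plate array in log2 units for each of the 75 genes, ordered within its class, with filled points for genes past the signal filter and open points for the 5 genes below it. Dotted lines mark 0.5 log2 units in each direction, which 3 genes passed upwards (Ctsa, Atg13 and Ctsd) and 5 passed downwards.

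Autophagosome genes were split between the directions. Of 28 members, which all passed the filter, 13 were above 0 and 15 below. The median was -0.04 and crossed to 0.0092 when the filter was set at the median signal. Only Atg13 was at least 0.5 units higher, while Gabarapl1, Atg12, Atg9a and Atg4a were at least 0.5 units lower, which is 14.3% of the class against 4.26% of all genes. Among genes at or above the median signal, these 4 were 15.4% of 26 members, against 6.6% of all genes.

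The initiation genes differed in size and sign. Atg13, which links the ULK1 kinase to its partners, had 9.84 in the microchamber, against 9.09 on the plate. This 1.68-fold difference of 0.75 was exceeded or matched by 1.09% of all genes past the filter. Atg13 lies on chromosome 2 (91674612 to 91710597, GRCm38). Ulk1, the initiating kinase itself, was nearly level, with 9.64 in the microchamber and 9.62 on the plate. Its relatives were level or lower. Ulk2, which overlaps with Ulk1 in function, was at -0.41 (5.97 and 6.38), Ulk3 at -0.17 and Ulk4 at -0.0040. Both genes of the nucleation complex were slightly higher in the microchamber. Becn1, which encodes Beclin 1, had 9.16 in the microchamber and 8.98 on the plate, although a probe set that it shares with Cntd1 differed by -0.80. Atg14, which directs that complex to the autophagosome site, had 8.72 and 8.44.

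Of 4 genes of lipid supply 3 (75%) were lower, against 52.3% of all genes past the filter. Atg9a, a membrane protein that moves lipids between leaflets and travels in vesicles to the forming membrane, had 7.47 in the microchamber, against 8.05 on the plate, a difference of -0.58. Its relative Atg9b was at -0.07, with low signal (5.65 in the microchamber and 5.72 on the plate). The lipid transfer proteins Atg2a and Atg2b lay on opposite sides of 0, at 0.21 and -0.23. Both differences were smaller than the SD among genes of their level, 0.36 and 0.35.

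The conjugation machinery was divided gene by gene. Atg12 is a ubiquitin-like protein that is joined to Atg5, and the pair assembles with Atg16l1 into the complex that directs lipidation. Atg12 had 8.27 in the microchamber, against 8.87 on the plate, which was 1.52-fold lower. Its partners ran the other way. Atg5 had 8.57 in the microchamber and 8.16 on the plate, a difference of 0.41, and Atg16l1 had 8.61 and 8.28, a difference of 0.33. Both differences were close to the SD among genes of their level, 0.36 for Atg5 and 0.35 for Atg16l1. Atg7, the activating enzyme of both conjugation pathways, had 7.13 in the microchamber and 7.35 on the plate. The carrier enzyme Atg10, which acts on Atg12, was at -0.36, and the carrier enzyme Atg3, which acts on the ATG8 proteins, was at 0.22. Atg16l2, a relative of Atg16l1, was at 0.08. Of the 4 ATG4 cysteine proteases, which trim the ATG8 proteins before and after use, 3 were lower. Atg4a had 6.91 in the microchamber, against 7.46 on the plate, 1.47-fold lower. Atg4b and Atg4c were at -0.27 and -0.26, and Atg4d at 0.05.

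The 5 ATG8 family genes also differed among themselves. Gabarapl1 had 8.22 in the microchamber, against 8.83 on the plate, which at 1.52-fold was the largest lower difference of all members. It lies on chromosome 6 (129533192 to 129542331). Map1lc3a, which encodes LC3A, was the next lowest within the ATG8 family, with 6.62 in the microchamber and 7.02 on the plate. Map1lc3b, the gene of the widely used autophagosome marker LC3B, ran the other way, with 10.99 in the microchamber and 10.76 on the plate. Gabarapl2 was at -0.15 (7.78 and 7.93). Gabarap was at 0.14 as the mean of its 2 probe sets, one with 10.95 in the microchamber and 10.71 on the plate, the other with 8.83 and 8.79. The family thus held 2 genes above 0 and 3 below. Sqstm1, the receptor p62 that carries ubiquitinated cargo into autophagosomes, had 11.04 in the microchamber and 10.88 on the plate. This difference of 0.16 was smaller than the within-gene SD.

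**Figure D2:**
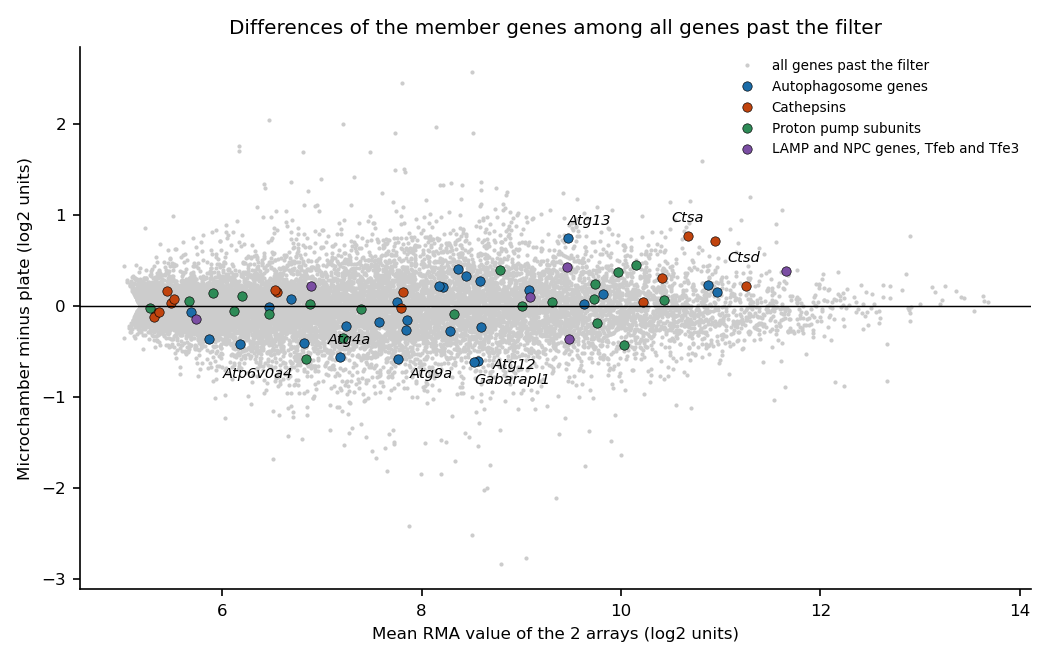
Difference between the microchamber array and the plate array (y axis, log2 units) against the mean RMA value of the 2 arrays (x axis, log2 units), with grey points for the 19099 genes past the filter and coloured points for the 70 members. The 8 named members were at least 0.5 log2 units apart, and each lies inside the cloud of genes of its own level.

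Cathepsins were mostly higher in the microchamber, led by Ctsa and Ctsd. Of 18 cathepsin genes 15 passed the filter, 11 of them above 0 and 4 below. The median was 0.15. The 73.3% above 0 compare with 46.9% of all genes past the filter. Ctsa and Ctsd were 13.3% of the class at 0.5 units or more, against 3.6% of all genes, and no cathepsin was that much lower.

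Ctsa encodes a serine carboxypeptidase that also holds other lysosomal enzymes in a stable complex. It had 11.06 in the microchamber, against 10.29 on the plate, a difference of 0.77 or 1.71-fold, the largest among the members. Ctsd, the main aspartic protease of the lysosome, had 11.30 in the microchamber, against 10.59 on the plate, 1.64-fold higher. Differences at least as high were found in 1.02% of all genes for Ctsa and 1.33% for Ctsd. Ctsa lies on chromosome 2 (164832872 to 164841032) and Ctsd on chromosome 7 (142375910 to 142387827). The cysteine proteases were closer together on the arrays. Ctsl had 10.57 in the microchamber and 10.26 on the plate, and Ctsb had 11.36 and 11.14. Their differences of 0.31 and 0.22 were below the SD of 0.35 among genes of their level.

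The remaining cathepsins were within 0.2 units of level. Ctsc, a dipeptidyl peptidase that activates serine proteases, was at 0.15, the aminopeptidase Ctsh at 0.16, the carboxypeptidase Ctsz at 0.04, Ctso at 0.08 and Ctsf at -0.01. Cathepsins known from blood cells, bone or gut also gave small differences. Ctsk of osteoclasts was at 0.17, Ctsw of lymphocytes at 0.18, and Ctsg of neutrophils at 0.04. Of these, Ctsk (5.53 in the microchamber, 5.37 on the plate) and Ctsg (5.50 and 5.46) lay close to the low-signal filter. So did Ctso (5.55 and 5.47). The SD among genes of their level was 0.13. Ctss of antigen-presenting cells had 5.33 in the microchamber and 5.40 on the plate, and Ctse had 5.30 and 5.37. Of the measured members known from the rodent placenta, Ctsj had 5.25 in the microchamber and 5.37 on the plate. Ctsm, Ctsq and Ctsr were below the filter, at -0.05, 0.05 and -0.16, so their differences carry little information. Among the 9 cathepsins at or above the median on at least 1 array, 8 were above 0, which is 88.9% against 45.7% of all genes at that signal. Their median was 0.18, against -0.03.

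The 4 LAMP and NPC genes past the filter were above 0, as most cathepsins were, against 46.9% of all genes past the filter. Lamp1, an abundant glycoprotein that lines the lysosome membrane, had 11.84 in the microchamber, against 11.46 on the plate, a 1.31-fold difference. Lamp2, its relative with a part in fusion and in chaperone-mediated autophagy, had 9.14 in the microchamber and 9.04 on the plate. Npc2, a soluble protein that hands cholesterol to the membrane transporter NPC1, had 9.67 in the microchamber and 9.24 on the plate, 1.35-fold higher. Npc1 was measured by 2 probe sets, one with 5.36 in the microchamber and 5.13 on the plate, the other with 8.64 and 8.43, and its mean difference was 0.22. The differences of Npc1 and Lamp2, 0.22 and 0.10, were below the SD of 0.36 and 0.35 among genes of their level. Those of Lamp1 and Npc2, 0.39 and 0.44, were little above the SD of 0.35 at theirs. Lamp3, below the filter, was at 0.15.

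The 2 transcription factors among the members, Tfe3 and Tfeb, were lower. Tfe3 had 9.30 in the microchamber, against 9.65 on the plate, a 1.28-fold lower value, and 8.86% of all genes had a difference at least as low. Its difference of -0.36 was about as large as the SD of 0.35 among genes of its level. Tfeb had 5.66 in the microchamber and 5.81 on the plate, close to the low-signal filter on both arrays. Transcript levels do not report the location of these factors in the cell, which the arrays did not measure.

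**Figure D3:**
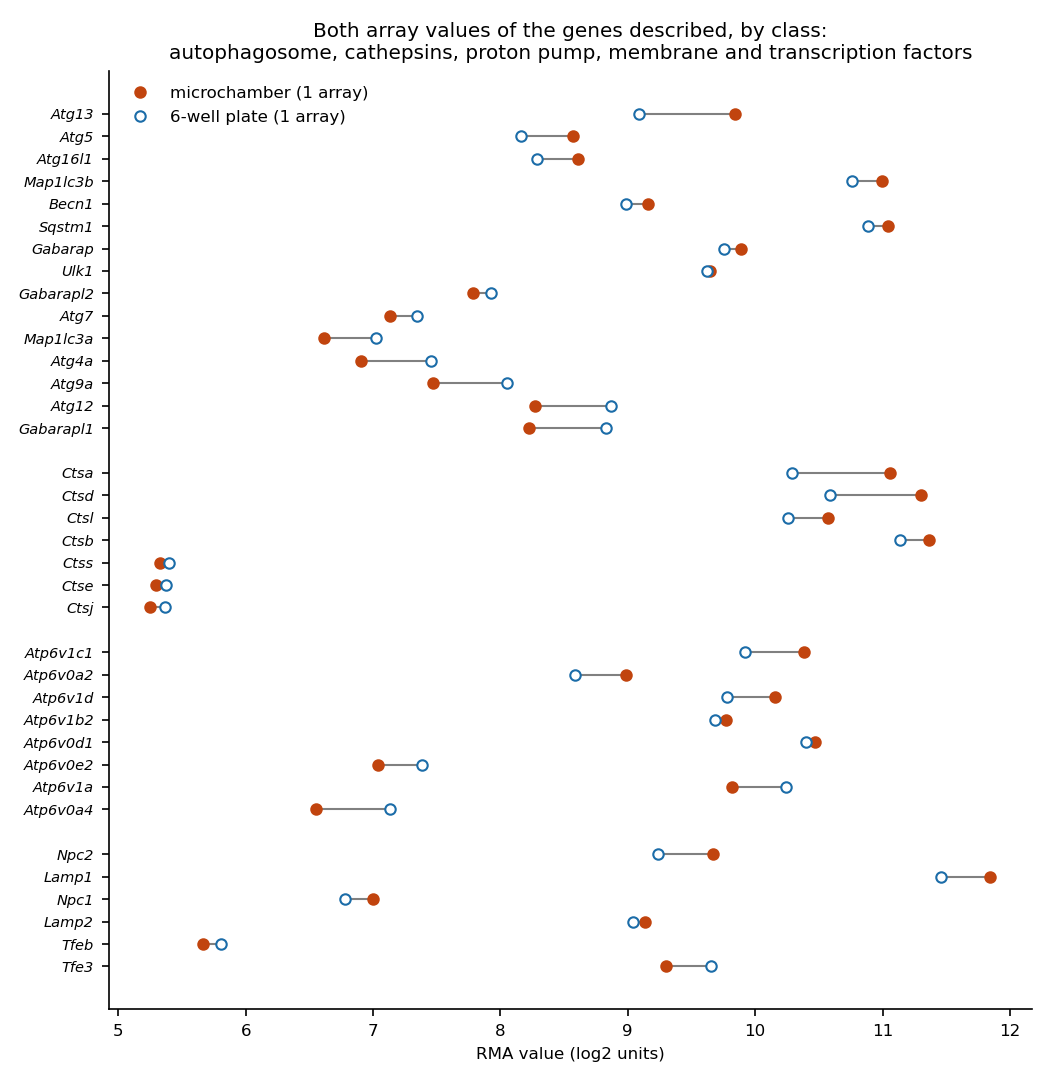
RMA values in log2 units of the members described with both values, with a filled point for the microchamber array and an open point for the plate array, ordered by difference within each class. Points of different genes come from different probes, so only the distance between the 2 points of a gene is read; it is widest for Ctsa (11.06 in the microchamber, 10.29 on the plate), Atg13 and Ctsd.

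The proton pump showed no common direction. Of 22 subunit genes 21 passed the filter, 12 above 0 and 9 below, with a median of 0.02. The 57.1% above 0 compare with 46.9% of all genes. None was 0.5 units higher and 1, Atp6v0a4, was at least 0.5 units lower, which is 4.76% against 4.26% of all genes.

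The V0 sector is the membrane part that conducts protons. Its a subunit, which steers the pump to different membranes, has 3 isoform genes among the members, and their differences spread from -0.58 to 0.40. Atp6v0a4, the isoform known from kidney, had 6.55 in the microchamber, against 7.13 on the plate, a difference of -0.58. Atp6v0a2, an isoform of the Golgi and endosomes, had 8.98 in the microchamber and 8.58 on the plate, while Atp6v0a1 was at 0.01. The remaining isoform gene, Tcirg1, which the symbol rule did not take and which was added after its value was seen, was at 0.05. The e subunit genes also separated, with Atp6v0e at 0.04 and Atp6v0e2 at -0.34 (7.04 and 7.38). Of the ring subunits, Atp6v0b was at 0.25 and Atp6v0c at 0.11, while a probe set that Atp6v0c shares with Akr1d1 and a pseudogene differed by 0.71. Atp6v0d1, which couples the ring to the shaft, had 10.47 in the microchamber and 10.40 on the plate, and its osteoclast form Atp6v0d2 was below the filter at 0.01.

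The V1 sector burns ATP. Its catalytic A subunit, Atp6v1a, had 9.82 in the microchamber, against 10.24 on the plate, a 1.35-fold lower value. The partner B subunit of the same catalytic ring, Atp6v1b2, did not follow. It had 9.77 in the microchamber and 9.69 on the plate, a difference of 0.09, with 0.10 and 0.07 from its 2 probe sets. Atp6v1c1, which clamps the sectors together, had 10.38 in the microchamber and 9.92 on the plate, and Atp6v1d, part of the central shaft, had 10.16 and 9.78. These differences of 0.46 and 0.38 were, with that of Atp6v0a2, the highest in the pump. Atp6v1e1, of the outer stalk, was at -0.19, Atp6v1h at -0.08 and Atp6v1f at -0.09. The 3 probe sets of Atp6v1g1 gave -0.05, -0.03 and -0.02. The isoforms Atp6v1b1, Atp6v1c2, Atp6v1e2, Atp6v1g2 and Atp6v1g3, which are known from restricted tissues, lay between -0.05 and 0.14. Of these, Atp6v1b1 (5.98 in the microchamber, 5.83 on the plate), Atp6v1c2 (5.70 and 5.64) and Atp6v1g3 (5.26 and 5.28) were under the median signal on both arrays.

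Promoter sequences were searched for the CLEAR core, and for the cores ACGTG and GCGTG of the low-oxygen factor HIF, after the members' values had been seen. The RefSeq promoter table for GRCm38.p6, which holds 250 bases before and 50 bases after each annotated start, had entries for 60 of the 75 members. The letters TCACGTGA, a palindrome that reads the same on both strands, were found in 6 members, or 10%, against 1.12% of all 27025 genes with an entry and 1.72% of those past the filter. The shorter E-box CACGTG, which lies inside it, was found in 13 members, or 21.7%. It was found in 8.09% of all genes with an entry and 10.5% of those past the filter. The members with the longer core were Ctsa, Ctsd, Atg3, Atp6v0d1, Atp6v0e and Atp6v1a. Their differences were 0.77, 0.72, 0.22, 0.07, 0.04 and -0.43, so 5 of 6 were above 0, against 46.3% of all genes past the filter with an entry, and the pump subunit Atp6v1a was not. A gene was counted as holding a motif if the window of any of its annotated starts held it. The 150 bases before the start are shown for 6 members to compare the highest cathepsins and Lamp1 with the core-bearing gene that was lower and with the highest and lowest autophagosome genes. Where a gene had a start with CACGTG in its window, that start was shown, so the stretches were picked for the motif. Sequences run 5′ to 3′ on the gene's strand, and capitals mark TCACGTGA or, where its outer bases differ, CACGTG.
Ctsa (chr2:164833623-164833772, + strand, the downstream of 2 annotated starts, at 0.77): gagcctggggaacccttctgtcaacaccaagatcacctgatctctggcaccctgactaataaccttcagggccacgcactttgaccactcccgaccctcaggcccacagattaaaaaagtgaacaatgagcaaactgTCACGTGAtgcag
Ctsd (chr7:142387828-142387977, - strand, at 0.72): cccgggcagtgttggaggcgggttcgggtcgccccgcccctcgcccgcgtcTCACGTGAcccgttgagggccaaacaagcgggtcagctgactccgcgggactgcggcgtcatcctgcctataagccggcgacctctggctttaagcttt
Lamp1 (chr8:13159011-13159160, + strand, at 0.39): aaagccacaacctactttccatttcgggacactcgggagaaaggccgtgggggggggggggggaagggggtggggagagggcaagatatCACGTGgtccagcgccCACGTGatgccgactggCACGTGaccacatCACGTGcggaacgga
Atp6v1a (chr16:44139260-44139409, - strand, before a start inside the annotated gene, at -0.43): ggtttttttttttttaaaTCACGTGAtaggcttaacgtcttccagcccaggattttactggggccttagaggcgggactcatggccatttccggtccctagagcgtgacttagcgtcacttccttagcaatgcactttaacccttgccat
Atg13 (chr2:91710593-91710742, - strand, at 0.75): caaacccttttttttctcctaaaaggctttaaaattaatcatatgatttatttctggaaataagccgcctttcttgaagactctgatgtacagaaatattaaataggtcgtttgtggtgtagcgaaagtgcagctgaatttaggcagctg
Gabarapl1 (chr6:129533042-129533191, + strand, at -0.61): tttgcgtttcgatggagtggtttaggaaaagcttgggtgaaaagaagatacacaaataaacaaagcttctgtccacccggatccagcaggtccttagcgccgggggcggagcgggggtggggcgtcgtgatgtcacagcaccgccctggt

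The core began 13 bases before the start in Ctsa, with another beginning at the fifth base after it, 99 bases before the start in Ctsd and 132 bases before it in Atp6v1a. Lamp1 carried 4 copies of the E-box within 61 bases of its start and no full core. Atg13 and Gabarapl1 carried neither anywhere in the window and were the highest and lowest autophagosome genes. The Atp6v1a stretch lies inside the gene's annotated span (44085402 to 44139702), whose 5′ end is further upstream. The HIF cores ACGTG and GCGTG were found in 19 and 32 members (31.7% and 53.3%), against 26.2% and 48.5% of genes past the filter with an entry. ACGTG lies inside CACGTG, so the 19 include all 13 members with the E-box. Likewise, the 3319 genes past the filter with ACGTG include all 1330 with the E-box. Genes with ACGTG outside the E-box were not counted apart. Members with ACGTG had a median difference of 0.07, and those with GCGTG 0.04. For ACGTG the median was -0.18 in 10 autophagosome genes and 0.51 in 4 cathepsins. These 4 cathepsins, with Ctsa and Ctsd among them, are the same 4 that held the E-box, so their median is not a separate result. The window leaves out more distant sites.

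Genes with the core were then counted across the array, a comparison chosen after the members' values were seen. Of 12644 genes past the filter with a promoter entry, 217 held TCACGTGA, 6 of them members. In difference 132 of these (60.8%) were above 0 and 84 (38.7%) below, against 46.3% and 53% of all genes with an entry. Their median difference was 0.07, against -0.02 for all 12644. At 0.5 units or more, 21 of the 217 (9.68%) were higher in the microchamber and 4 (1.84%) lower, against 3.65% and 4.4% of all genes with an entry. Without the 6 members, 19 of 211 were higher and 4 lower. Genes with the core mostly had high signal, where differences spread more. With the filter at the median signal 189 of the 217 were left, and these held all 21 higher and 4 lower genes. Over all genes at that signal, with or without an entry, 5.51% were higher and 6.6% lower. The 1113 genes with CACGTG but not the longer core had a median of -0.02, with 4.76% higher and 6.02% lower. These are counts of letters in promoters and do not show that a factor bound there.

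**Figure D4:**
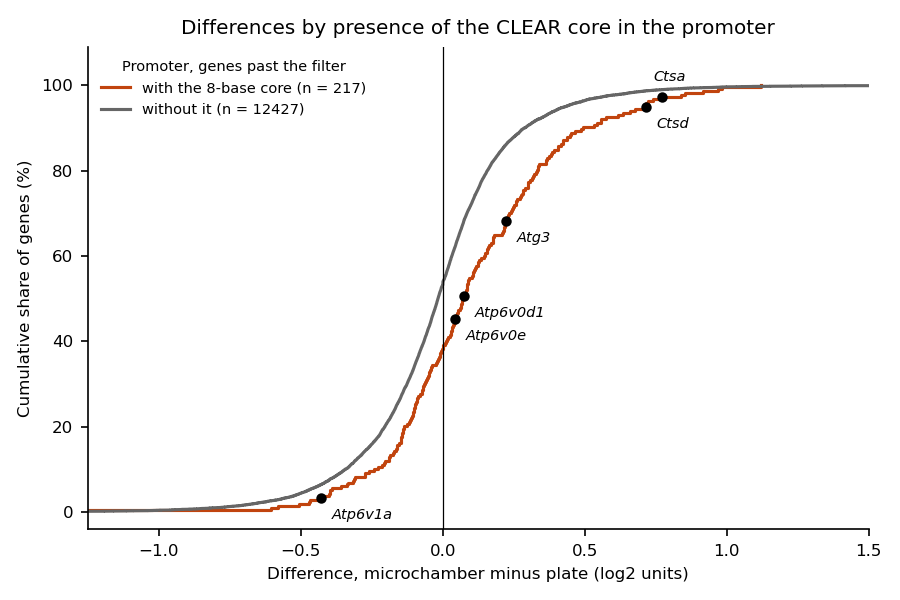
Cumulative share of genes (y axis, percent) by difference between the microchamber array and the plate array (x axis, log2 units) for 217 genes with the 8-base CLEAR core in the promoter and 12427 genes without it, all past the filter. The curve of genes with the core lies to the right of the other through most of the range, and the 6 members on it spread from -0.43 (Atp6v1a) to 0.77 (Ctsa).

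Other genes of the pathway were counted from 10 lists. Lysosomal hydrolases other than cathepsins were spread more widely than the cathepsins. Of 38 measured members, which all passed the filter, 17 were above 0 and 21 below, with a median of -0.09 and a mean of 0.06. Of these, 6 (15.8%) were at least 0.5 units higher and 2 (5.26%) lower, against 3.6% and 4.26% of all genes. Among all genes at or above the median signal, 5.51% were higher and 6.6% lower by that step. Dpp7, a dipeptidyl peptidase, had 9.37 in the microchamber, against 8.25 on the plate, and Hexa, the alpha chain of beta-hexosaminidase, had 10.31, against 9.22. Both were more than 2-fold higher, which 0.346% of all genes were. Idua, which degrades glycosaminoglycans, was at -0.55, and Gm2a, the activator protein that presents lipid to beta-hexosaminidase, at -0.51. Further lysosome membrane genes had 4 of 26 members (15.4%) at least 0.5 units higher, against 3.6% of all genes, and none lower, with a median of 0.06. The cystine exporter Ctns was at 0.79, Cd68 at -0.42 and Sidt2 at -0.44.

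In enzyme sorting and among the pump's partners, few genes differed by that size, all of them higher in the microchamber. Of 15 sorting genes, with a median of -0.0021 and a mean of 0.06, 2 (13.3%) were at least 0.5 units higher, against 3.6% of all genes, and none lower. These were Igf2r, the receptor that carries mannose-6-phosphate-tagged enzymes, at 0.64, and Nagpa, which uncovers that tag, at 0.57, while Sort1 and Vps26b were at -0.33 and -0.46. Of 14 pump partners and assembly genes 10 (71.4%) were above 0, against 46.9% of all genes. Only 1 (7.14%) was at least 0.5 units higher, against 3.6% of all genes. Wdr7, of the complex that regulates pump assembly, was at 0.80 and the accessory subunit Atp6ap2 at 0.48, with Tmem9 at -0.34 and Oxr1 at -0.32. The 7 protease inhibitors past the filter lay between -0.47 (Stfa2) and 0.07 (Serpinb6a). Cst3, cystatin C, was at 0.06 and Timp1 at -0.23.

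Autophagy genes outside the symbol rule were split as the members were. Of 25 further genes 14 were above 0 and 11 below, with a median of 0.05 and a mean of -0.03, and with none at least 0.5 units higher and 2 (8%) lower, against 4.26% of all genes. Wipi1, which reads the lipid mark of the nucleation site, had 7.41 in the microchamber, against 8.40 on the plate, 1.99-fold lower. Prkaa2, a catalytic subunit of the energy sensor AMPK, was at -0.65. Rb1cc1, the scaffold of the ULK1 complex, was at 0.46 and the kinase Dapk1 at 0.32. The 19 cargo receptors had a median of 0.01 and a mean of -0.10. Among them the mitophagy receptor Bnip3, a known target of the low-oxygen response, was at -2.84. The next lowest of that list, Stbd1, was at -0.26, while Wdfy3 and the reticulum receptor Fam134b were at 0.69 and 0.40. The 18 fusion genes had a median of -0.06. Vps33a and Vps18, subunits of the tethering complex, were at 0.72 and 0.45, and Vps39, another tethering subunit, and the SNARE Vamp8 were at -0.67 and -0.69.

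The mTORC1 genes that act at the lysosome had 3 of 26 members (11.5%) at least 0.5 units higher and 1 (3.85%) lower, against 3.6% and 4.26% of all genes, with a median of -0.03 and a mean of 0.08. The highest were Rragc, a Rag GTPase that docks mTORC1 on the lysosome, with 9.59 in the microchamber and 8.62 on the plate, and Fnip2, a partner of folliculin, at 0.79. Tbc1d7, a subunit of the TSC complex that restrains mTORC1, was at -0.61, and Mios at -0.28. None of 14 partners and relatives of TFEB and TFE3 was 0.5 units apart. Tfec, a relative of both factors, was at 0.31, while Foxo3 and Ppp3ca, a catalytic subunit of calcineurin, were at -0.22 and -0.25. Mitf, another relative, was added after its value was seen. It had 8.31 in the microchamber and 8.08 on the plate, a difference of 0.23.

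**Figure D5:**
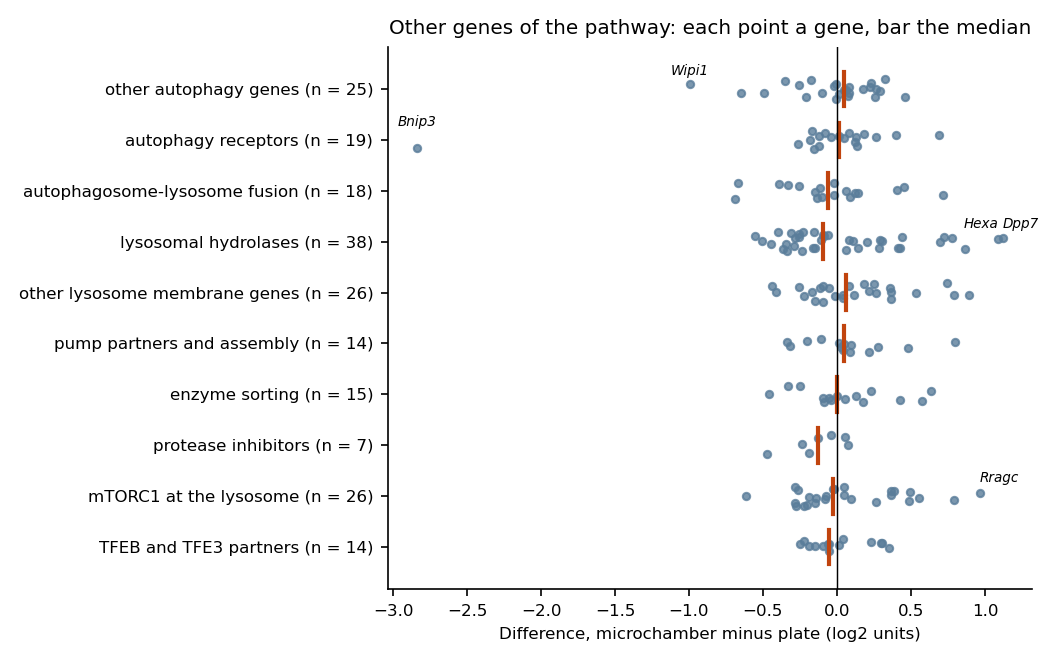
Difference between the microchamber array and the plate array in log2 units (x axis) for genes past the filter in 10 lists of other pathway genes, 1 point a gene, with a bar at each list's median. List medians lie between -0.13 and 0.06, while single genes stand apart, from Bnip3 at -2.84 to Dpp7 at 1.12.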

How the data were processed

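Total RNA from 1 microchamber culture and 1 plate culture was profiled, so the number of arrays limits precision. The deposited values are log2 values that the authors background-corrected, summarised per transcript cluster (probe set) and normalized by RMA, per the series design text. Per the submitters' processing notes the programs were Transcriptome Analysis Console 3.0 and, from the same maker, Expression Console 1.4.1. The file headers name mm10. RMA gives both arrays 1 distribution, so a shift of most genes would not show. The authors' deposited table also holds a fold ratio without direction, not used here, and a log2 fold change that runs from microchamber to plate (plate minus microchamber), which equalled the deposited values within 1e-05. Differences here run the other way.

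Only probe sets with 1 symbol entered, and those of a gene were averaged (pandas 2.3.3). Those with several symbols (2305), none (6756) or a date for a symbol (24) were left out. Members and lists were chosen with earlier results of these data known. Members are described with both values if at least 0.5 log2 units apart, among the 3 highest or 3 lowest of their class, or among 22 fixed genes; other members are named with their difference or values. Each other list gives its 2 highest and 2 lowest genes, apart from 2 genes that are not reported here. Markers named above were taken from 6 fixed marker lists, after their values were seen. Gene coordinates and promoters come from RefSeq on GRCm38, where all 75 symbols matched. Motif searches covered both strands. The averaging and loess steps were tested on simulated data.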

Additional observations from a re-analysis of the deposited data

Results flagged for a closer look

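Signal stood out in 2 probe sets that name a member together with another gene and so entered no comparison. The probe set shared by Becn1 and Cntd1 had 6.80 in the microchamber, against 7.60 on the plate, a difference of -0.80, while the probe set of Becn1 alone was at 0.18. The probe set shared by Akr1d1, Atp6v0c and the pseudogene Atp6v0c-ps2 had 10.61 in the microchamber, against 9.90 on the plate, a difference of 0.71, while the probe set of Atp6v0c alone was at 0.11. Which of the named transcripts gave these signals cannot be told apart, so the direction of Becn1 and the size of the Atp6v0c difference rest on the probe set chosen.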

How the results depend on the processing

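No paired analysis was possible because each group holds 1 array, and no array could be left out. Settings tried in turn were a filter at the median or none, centring, removal of a loess trend (span 0.3), the brightest probe set, shared probe sets under their first symbol, the series value table, the mean of a class and other sizes. Of 93 class medians and counts under these settings, 84 stayed close to the reported value, where close means within 0.21 divided by the square root of the number of genes for a median, so that smaller classes have more room, and within 1.5 times for a count. The median of all members was 0.068 after loess, and that of the autophagosome genes was 0.0092 with the filter at the median and -0.11 with shared probe sets, so its sign is not settled. The cathepsin median was 0.066 without the filter. At 0.4 units 7 members were higher and 8 lower, and at 0.6 units 1 was lower. The median of genes with the CLEAR core, for which the settings were chosen after seeing the data, was 0.087 with the filter at the median and 0.090 after loess. Of the 36 members that the naming rule selects, 35 stayed within the within-gene SD, and Becn1 alone changed sign, to -0.31 with shared probe sets. The SD of differences was smallest at low signal. Small values of Tfeb, Atg9b, Ctss, Ctse, Ctsj, Ctsk, Ctsg, Ctso, Atp6v1b1, Atp6v1c2 or Atp6v1g3 thus do not show equal expression.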

Other observations

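The authors' table lists 3 further genes of these families under older symbols, so the symbol rule did not take them. Atg101, a partner of Atg13 in the ULK1 complex, appears as 9430023L20Rik and had 9.05 in the microchamber and 8.93 on the plate, a difference of 0.11. Lamp5, listed as 6330527O06Rik, had 5.92 in the microchamber and 5.75 on the plate. Atp6v1fnb, listed as Gm9047, had 5.34 on both arrays.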
